A study of Mus musculus with 4 samples.

Results

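SOX genes encode transcription factors that bind DNA through a shared domain, the HMG box. The 10 genes described here are Sox2, Sox4, Sox5, Sox6, Sox7, Sox9, Sox10, Sox11, Sox12 and Sox18. They were chosen by name from the 53465 genes counted in each library, and their symbols were matched to the Ensembl IDs of the files through the GENCODE vM21 annotation of GRCm38. All 10 were found once. RNA came from Fgf10-positive cells that had been sorted from mouse submandibular gland, a salivary gland with epithelial acini and ducts inside a mesenchymal stroma. Adult mice received tamoxifen on postnatal days 57 and 58 and were killed on day 60. Pups received it on days 4 and 5 and were killed on day 7. The dose was 0.1 mg per g of body weight at both ages, with 2 libraries per age. All mice were C57BL/6J of the genotype Fgf10CreERT2:Rosa26Tomato fl/fl, so that adults and pups alike carried the inducible Cre driven by Fgf10, received tamoxifen and carried the Tomato reporter. Such a reporter marks cells that used Fgf10 when tamoxifen was present, and it stays on in them and their descendants afterwards. Whether the replicates are separate animals or pools is not in the labels, so the p-values given here measure only the spread between these libraries, which may be technical.

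SOX factors are sorted into classes by the sequence of the HMG box, and members of a class often act in the same tissues. The class E factors Sox9 and Sox10 mark the distal buds of the developing salivary gland, where they are part of the programme of epithelial progenitors, and elsewhere they direct cartilage (Sox9) and Schwann cells and melanocytes (Sox10). Sox4, Sox11 and Sox12 form class C, which is widely used in embryonic progenitors. Class F, with Sox7, Sox17 and Sox18, works in the endothelium of blood vessels. Sox5 and Sox6, of class D, act with Sox9 in cartilage, and Sox2, of class B1, maintains stem cells and, in salivary gland, progenitors of acini.

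The most conserved coding stretch shows the kinship of the 10 members, and for that reason it is printed here. In each gene the longest annotated coding sequence was taken, the window most alike between Sox9 and the others was located, and within it the best 30 bases, which lie near the start of the HMG box. Each line runs 5′ to 3′ along the coding strand, with capitals at bases that differ from Sox9. Positions are those of GRCm38, each stretch lies inside a single coding exon, and the letters come from the GENCODE vM21 transcripts.
Sox9, chr11:112782900-112782929, plus strand: aagcgacccatgaacgccttcatggtgtgg
Sox10, chr15:79163375-79163404, minus strand: aagAgGcccatgaacgccttcatggtgtgg
Sox4, chr13:28952815-28952844, minus strand: aagcgGcccatgaacgccttTatggtgtgg
Sox11, chr12:27342232-27342261, minus strand: aaAcgGcccatgaacgccttcatggtgtgg
Sox12, chr2:152397549-152397578, minus strand: aagcgGccGatgaacgcGttcatggtgtgg
Sox7, chr14:63943891-63943920, plus strand: CGgcgGcccatgaaTgccttcatggtgtgg
Sox18, chr2:181671255-181671284, minus strand: CGgcgGcccatgaacgccttcatggtgtgg
Sox5, chr6:143841247-143841276, minus strand: aagcgTccAatgaaTgccttcatggtgtgg
Sox6, chr7:115489736-115489765, minus strand: aagcgaccAatgaaTgcGttcatggtTtgg
Sox2, chr3:34650545-34650574, plus strand: aagAgGcccatgaacgccttcatggtAtgg
The 9 other members differed from Sox9 at 2 to 4 of these 30 bases, and both class F genes carried the same opening bases. Over the wider window, Sox9 and Sox10 were identical at 84.4% of positions, Sox4 and Sox11 at 90.2%, Sox5 and Sox6 at 82.2%, and Sox7 and Sox18 at 77.8%. Sox6 and Sox18, the least alike pair, were identical at 55.6%. The longest run of identical bases between transcripts of different members was 48, shared by Sox4 and Sox11, so that reads longer than this could in principle be assigned to one member. The read length is not given in the sources used here.

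The libraries held 7289792 to 21490686 counts over genes and differed in makeup as well as depth. In pup replicate 1, 76.7% of all reads tallied were assigned to no counted feature, against 9.70% to 10.6% in the other libraries. Whether such reads lay between genes or in introns is not in the files. Olfactory receptor genes, which are used in the nose, had a count in 96.5% of 1127 members in pup replicate 1 and in 1.60% to 7.63% elsewhere. This background amounted to 14.0 counts per kb of exon in pup replicate 1, with 0.556 and 39.6 as the 5th and 95th percentiles over those genes, and to at most 0.151 counts per kb in the other libraries. Below, the background expected for a SOX gene is this rate times its exon length. Of other cell types, ionocyte genes summed to 8772 and 5381 CPM in adult libraries against 182 and 221 CPM in pup libraries. Mesenchymal genes summed to 1207 and 17432 CPM in adult libraries, compared with 21228 and 47058 CPM in pup libraries, so adult replicate 2 lay nearer to the pups in them than adult replicate 1 did. CPM is the gene's count scaled to library size, with TMM factors from edgeR.

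Sox9 and Sox4 were the leading SOX genes at both ages, and Sox10 was prominent in the pups. Summed over the 10 members as CPM per kb of exon, SOX RNA came to 199 and 336 in adult replicates 1 and 2 and to 110.1 and 223 in pup replicates 1 and 2. Sox9 supplied 73.8% and 54.1% of it in the adults, against 37.6% and 39.5% in the pups. Sox10 supplied 4.25% and 5.44% in the adults, against 19.0% and 25.9% in the pups. Sox4 supplied 21.1% and 20.3% in the adults, against 34.3% and 32.4% in the pups. In the remaining share, class F genes stood out in 1 library alone, adult replicate 2, where Sox18 supplied 12.9% and Sox7 6.87%.

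**Figure D1:**
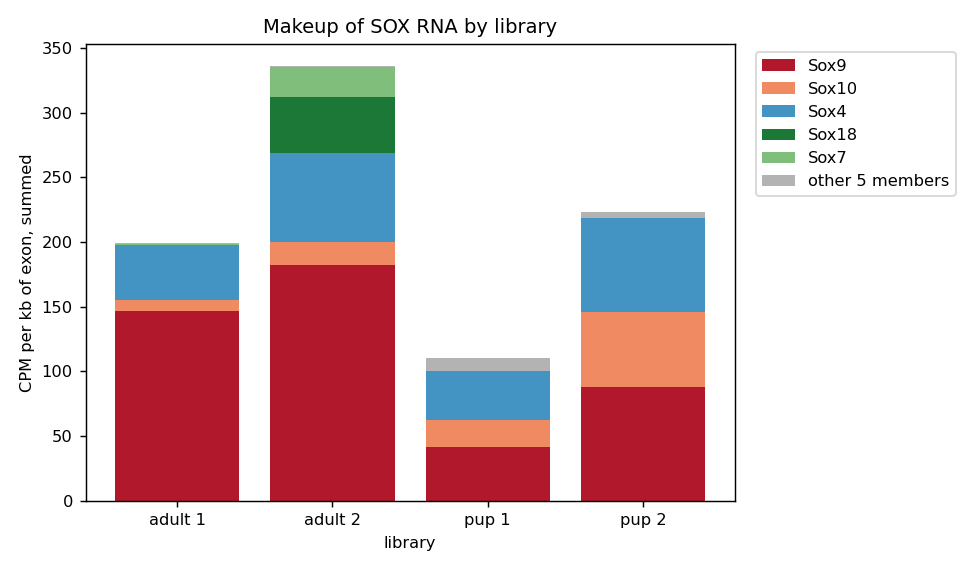
Stacked bars give CPM per kb of exon for the SOX members in each library, adults on the left and pups on the right, with 5 members drawn singly and the other 5 summed. Sox9 makes up 73.8% and 54.1% of the adult bars and 37.6% and 39.5% of the pup bars, and Sox18 and Sox7 are visible only in adult replicate 2.

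Setting adult beside pup asks which SOX genes Fgf10-positive cells use at each age. Of the 10 members, 8 passed the filter on low counts and entered edgeR's quasi-likelihood test across 16320 genes. Sox2 and Sox18 did not pass. At an adjusted p of 0.05 edgeR called 0 of the 8 tested members, with background shares of 0% higher in adult and 0% lower in adult over all genes. At an unadjusted p under 0.05 it found 1 member, Sox7, higher in adult, where 5.99% of all genes stood higher and 8.49% lower. DESeq2 called 1 member, again Sox7, against 3.74% of all genes called higher and 5.28% called lower. By limma-voom 0 members were called, and 0 of all genes in either direction. At an unadjusted limma-voom p under 0.05 there were 0 members, where 1220 of all 16320 genes stood higher and 1001 lower. Both libraries of one age lay apart from both of the other for 2 members higher in adult (Sox7 and Sox9), where 21.8% of all genes tested did so, and for 3 lower in adult (Sox6, Sox10 and Sox12), where 27.1% did so. The median log2 fold change of the 8 tested members was -1.95, beside -0.24 over all genes tested. Sox5, Sox6, Sox11 and Sox12 lay below that median, and their counts in pup replicate 1 were 0.992 to 2.16 times the expected background. Without pup replicate 1 their log2 fold changes were 2.23, -0.67, -0.93 and -2.81, in that order. Bulk RNA cannot tell fewer cells of a type from less RNA per cell.

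**Figure D2:**
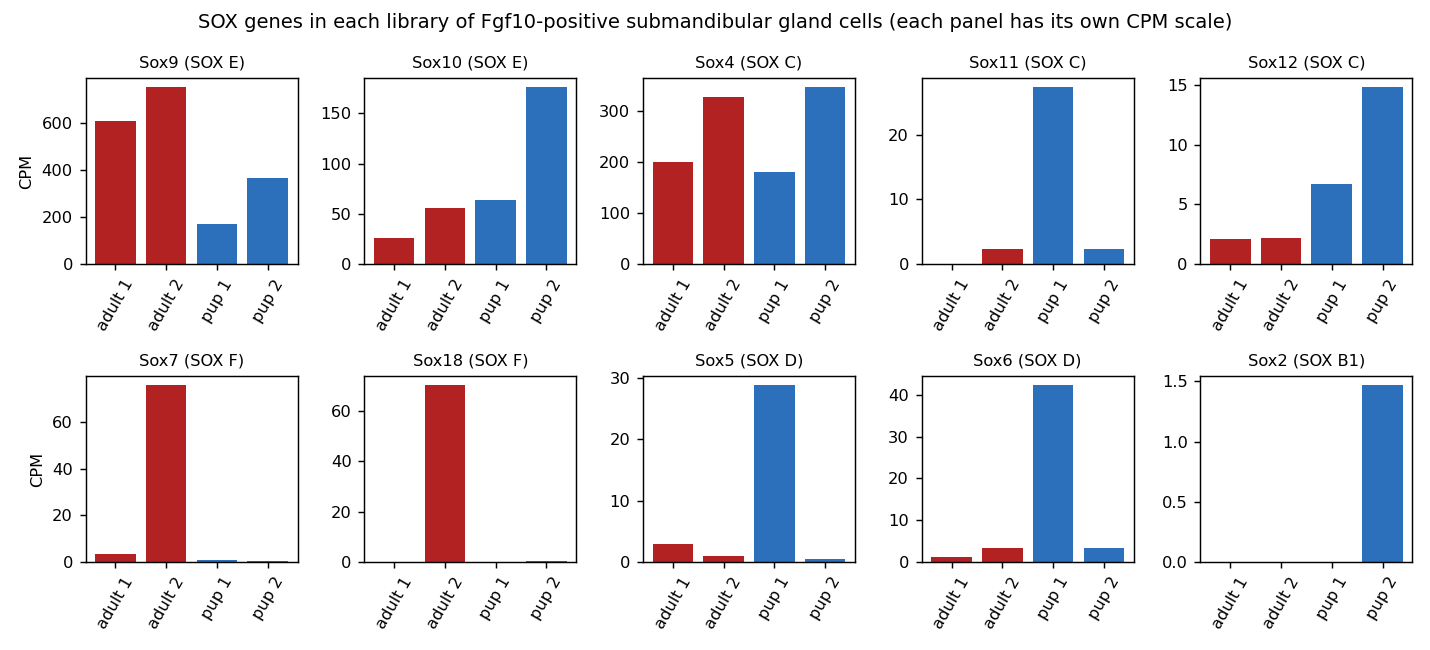
Bars give the CPM of each SOX gene in each library, adult libraries in red on the left and pup libraries in blue on the right, and every panel has its own scale starting at 0. Sox9 is higher in both adults (607 and 751 CPM) than in both pups (171 and 364 CPM), Sox10 is lower in both adults, and Sox7, Sox18, Sox5, Sox6, Sox11 and Sox2 are each carried by 1 library.

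Sox9 (ENSMUSG00000000567, chromosome 11, 112782224 to 112787760), the class E factor of bud epithelium and cartilage, led the members per kb of whole exon length in every library. In the pups its lead over Sox4 was small, at 1.09 and 1.22 times. Of the exon length of Sox4, 54.6% overlaps a gene on the other strand, so that lead is uncertain. By CPM, Sox4 stood above Sox9 in pup replicate 1, at 181 against 171. Sox9 had 7927 and 10434 counts in the adults, or 607 and 751 CPM, against 1583 and 6933 counts in the pups, or 171 and 364 CPM. Both adult libraries lay above both pup libraries. The means were 679 ± 102 CPM in adult and 268 ± 136 CPM in pup (SD, n = 2 each), and the log2 fold change, adult over pup, of 1.34 ± 0.75 (SE) was past the threshold neither in edgeR (adjusted p = 0.502) nor in DESeq2 (adjusted p = 0.103). With a library left out it ran between 0.90, without pup replicate 1, and 1.99, without pup replicate 2. The expected background was 58.0 of the 1583 counts in pup replicate 1. Per kb of exon, Sox9 exceeded 97.5% and 98.2% of all genes tested in the adults, against 96.3% and 95.8% in the pups.

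Sox10 (ENSMUSG00000033006, chromosome 15, 79154908 to 79165240), the other class E member, differed with the opposite sign. Its counts were 337 and 775 in the adults, or 25.8 and 55.8 CPM, against 589 and 3359 in the pups, or 63.7 and 176 CPM. The groups did not overlap, though adult replicate 2 and pup replicate 1 lay close together. The log2 fold change was -1.56 ± 0.69 (SE), past the threshold neither in edgeR (adjusted p = 0.382) nor in DESeq2 (adjusted p = 0.173). It was -0.64 without pup replicate 2 and -2.22 without adult replicate 2, by edgeR with adjusted p of 0.665 and 0.237. In pup replicate 1 the expected background was 42.8 of the 589 counts. Per kb, Sox10 stood above 68.8% and 81.7% of the genes tested in the adults and above 91.6% and 93.6% in the pups.

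The ratio of the class E genes within a library does not depend on how libraries are scaled to each other. Per kb of exon, Sox9 stood at 17.4 and 9.93 times the level of Sox10 in the adults, against 1.98 and 1.52 times in the pups. With the expected background taken off both genes, the ratio in pup replicate 1 was 2.06. The mean log2 ratio was 2.92 higher in adult, and the groups were fully apart, but an exact two-sided permutation test over 2 against 2 libraries gave p = 0.333, the smallest p this design allows. This ratio was singled out after the values were seen. Since Sox9 was higher and Sox10 lower in both adults, the separation and its p followed from those values and add no support. Sox9 over Sox4 was 3.5 and 2.66 in adult libraries against 1.09 and 1.22 in pup libraries, and Sox10 over Sox4 was 0.202 and 0.268 in adult libraries against 0.552 and 0.8 in pup libraries, each with the same exact two-sided permutation p of 0.333. Ratios and shares that involve Sox4 use its whole exon length, of which 54.6% overlaps a gene on the other strand, and would change if reads there had been dropped as ambiguous.

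Genes that SOX9 serves in cartilage, and SOX10 in glia and neural crest, were set beside these values. All 12 cartilage genes were matched and 8 were tested, of which 8 had a negative log2 fold change, with a median of -3.32. Over all genes tested, DESeq2 called 3.74% higher and 5.28% lower, with a median log2 fold change of -0.24. These values stand beside this list and every list below. Col9a1, Hapln1 and Cnmd had 0 counts in adult replicate 1, so they passed the filter only with pup libraries, which favoured a negative sign. For this list edgeR called 0 members and DESeq2 called 4 lower in adult, those genes among them, and 0 higher. Its most abundant members were Col9a2, a chain of collagen IX, at 14.1 and 0 CPM in adult libraries, compared with 54.4 and 150.2 CPM in pup libraries, and Cnmd, which encodes the cartilage protein chondromodulin, at 0 and 1.51 CPM in adult libraries, compared with 73.3 and 103 CPM in pup libraries. Col2a1, the defining collagen of cartilage, had 0 and 46 counts in adult libraries, compared with 38 and 0 counts in pup libraries, with 129.7 expected from background in pup replicate 1. Log2 fold changes of the tested cartilage genes were thus negative while that of Sox9 was positive. They ran from -6.84 (Cnmd) to -0.17 ± 2.88 (SE, Comp), with Col2a1 at -0.30 ± 2.97 (SE), so the last 2 were not distinct from 0. Col2a1 was at 0 in 1 library of each age.

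Of the 13 glial and neural crest genes, 8 were tested, 2 of them positive and 6 negative, with a median of -2.49. DESeq2 called 1 higher (Erbb3) and 3 lower, Mitf and Egr2 among them, and edgeR called 0. Egr2, a zinc finger factor of Schwann cells that many cells also induce as an early response gene, stood at 45.4 and 63.7 CPM in adult libraries, compared with 134 and 283 CPM in pup libraries. Erbb3, a neuregulin receptor that epithelia also use, stood at 104 and 147 CPM in adult libraries against 31.0 and 24.2 CPM in pup libraries. Foxd3, a factor of early neural crest, had 0 counts in the adults and in pup replicate 2, the library in which Sox10 stood at 176 CPM.

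Sox4 (ENSMUSG00000076431, chromosome 13, 28948919 to 28953713), of class C, was the member nearest to equal between the ages. It had 2627 and 4550 counts in the adults, or 201 and 328 CPM, and 1677 and 6602 counts in the pups, or 181 and 347 CPM. The ranges overlapped. The means were 264 ± 89.3 CPM in adult and 264 ± 117 CPM in pup (SD, n = 2 each), and the log2 fold change was 0.00 ± 0.65 (SE, edgeR adjusted p = 0.999). Its sign turned with the scaling, to -0.28 under library totals. Of the exon length of Sox4, 54.6% lies opposite another annotated gene, Gm26735, which had 1 count in pup replicate 1 and 0 elsewhere. Reads there cannot be told apart without strand, so the level of Sox4 is uncertain.

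Sox12 (ENSMUSG00000051817, chromosome 2, 152393611 to 152398063) was scarce in the adults. It had 27 and 30 counts there, or 2.07 and 2.16 CPM, against 62 and 282 counts in the pups, or 6.71 and 14.8 CPM. Both adults lay below both pups, and the 62 counts of pup replicate 1 stood beside 62.5 expected at the average background rate. How much of them was background was not tested. The log2 fold change was -2.34 ± 1.41 (SE, edgeR adjusted p = 0.536) and ranged from -2.81 to -1.66 with a library left out. Relative to Sox12, Sox4 was 90.4 and 141 times as abundant per kb in the adults and 21.7 times in pup replicate 2.

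Sox11 (ENSMUSG00000063632, chromosome 12, 27334264 to 27342574), the class C gene of embryonic neurons and mesenchyme, had 0 and 33 counts in the adults, or 0 and 2.38 CPM, against 252 and 43 counts in the pups, or 27.3 and 2.26 CPM. Adult replicate 2 and pup replicate 2 were alike, and pup replicate 1 alone was high. There the expected background was 117 counts, and the observed 30.3 counts per kb exceeded 88.9% of olfactory receptor genes. The log2 fold change was -3.62 ± 2.34 (SE, edgeR adjusted p = 0.566). It was -0.93 without pup replicate 1. Without adult replicate 2, whose 33 counts are the only adult ones, edgeR called the gene lower in adult (adjusted p = 0.0249, over alternatives 0.0249 to 0.934), and no fold can then be read from the fit because the remaining adult is at 0.

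**Figure D3:**
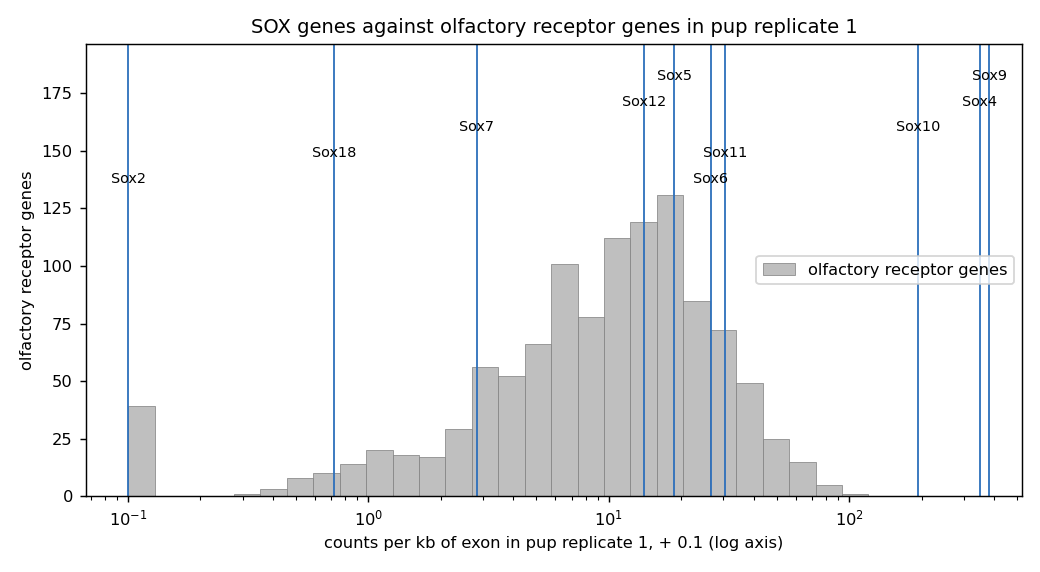
Grey bars count olfactory receptor genes by their counts per kb of exon in pup replicate 1 (log axis, 0.1 added), and blue lines mark the SOX genes. Sox9, Sox4 and Sox10 lie to the right of every olfactory receptor gene, Sox12, Sox5, Sox6 and Sox11 lie above 60.4% to 88.9% of them, and Sox7, Sox18 and Sox2 lie in the lower part.

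Class C partners and targets gave 9 tested genes of 11, 8 of them negative and 1 positive, the median being -1.29 on the log2 scale. DESeq2 called 3 of them lower in adult (Dcx, Mex3a and Tubb3) and 0 higher, and edgeR called 0. The most abundant, Marcksl1, an actin-binding protein gene, stood at 156 and 106 CPM in adult libraries, compared with 155 and 485 CPM in pup libraries. Sema3c, a secreted guidance gene, stood at 124 and 115 CPM in adult libraries, compared with 101 and 209 CPM in pup libraries. Tubb3, the neuronal tubulin activated by Sox4 and Sox11, had 0 and 1 counts in adult libraries against 103 and 61 counts in pup libraries, 26.2 of the 103 being expected from background.

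Sox7 and Sox18, of class F, were carried by adult replicate 2. Sox7 (ENSMUSG00000063060, chromosome 14, 63943673 to 63950732) had 43 and 1057 counts in the adults, or 3.30 and 76.1 CPM, against 9 and 5 counts in the pups, or 0.974 and 0.263 CPM. Both adults lay above both pups, while the adults differed from each other by 23.1 times. The log2 fold change was 6.05 ± 1.72 (SE), called by DESeq2 (adjusted p = 0.00228) and not by edgeR (adjusted p = 0.267). It was 2.42 without adult replicate 2 (edgeR adjusted p = 0.777) and 6.95 without adult replicate 1 (edgeR adjusted p = 5.39e-07), and these are the highest and lowest adjusted p over the alternatives. With 46.3 counts expected from background in pup replicate 1 and 9 observed, the average background rate does not hold gene by gene.

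Sox18 (ENSMUSG00000046470, chromosome 2, 181669836 to 181671640) had 0 and 976 counts in the adults, or 0 and 70.3 CPM, against 1 and 3 counts in the pups, or 0.108 and 0.158 CPM. It did not pass the filter and was not tested. A count of 0 in adult replicate 1 allows up to 0.230 CPM, for counting error only. Within adult replicate 2, Sox18 reached 43.4 CPM per kb and Sox7 23.1, so Sox7 was 0.532 times as abundant per kb.

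Endothelial genes were high in the same library as class F. Their sum was 263 and 1747 CPM in adult libraries, compared with 231 and 20.1 CPM in pup libraries, and of 14 genes, adult replicate 1 held 10 at 0 and adult replicate 2 held 0, while 0 were at 0 in the first pup library and 4 in the other. Pecam1, an adhesion molecule of endothelium, had 1 and 5480 counts in adult libraries, compared with 235 and 21 counts in pup libraries. Cdh5, the endothelial cadherin gene, had 0 and 605 counts in adult libraries, compared with 85 and 3 in pup libraries. The 263 CPM of adult replicate 1 were almost wholly Vwf, which encodes von Willebrand factor and stood at 260.0 and 506 CPM in adult libraries, compared with 43.4 and 3.84 CPM in pup libraries. In all, 12 of the 13 tested endothelial genes had a positive log2 fold change, with a median of 2.62, edgeR called 0, and DESeq2 called 1 (Vwf) higher and 0 lower in adult. The part that endothelial cells played in the Sox7 and Sox18 values was not tested.

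**Figure D4:**
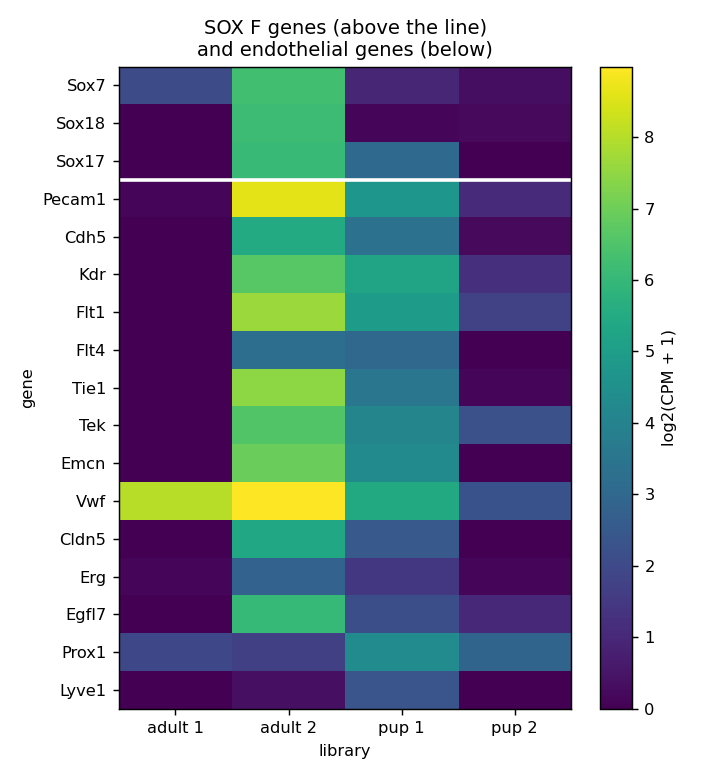
Colour gives log2(CPM + 1) of the class F genes above the white line and of 14 endothelial genes below it, with adult libraries on the left and pup libraries on the right. Adult replicate 2 is high for Sox7, Sox18, Sox17 and most endothelial genes, whereas adult replicate 1 is dark except for Vwf, Sox7 and Prox1.

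Sox5 and Sox6, of class D, were at low levels outside pup replicate 1. Sox6 (ENSMUSG00000051910, chromosome 7, 115470872 to 116038796) had 14 and 45 counts in the adults, or 1.07 and 3.24 CPM, against 392 and 65 counts in the pups, or 42.4 and 3.41 CPM. The groups did not overlap, but adult replicate 2 and pup replicate 2 lay side by side. Of the 392 counts, 208 were expected from background, and the log2 fold change of -3.40 ± 1.48 (SE, edgeR adjusted p = 0.374) became -0.67 without pup replicate 1.

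Sox5 (ENSMUSG00000041540, chromosome 6, 143828425 to 144781977) had 39 and 14 counts in the adults, or 2.99 and 1.01 CPM, against 267 and 8 counts in the pups, or 28.9 and 0.420 CPM. Pup replicate 1 was the highest library and pup replicate 2 the lowest, so the groups overlapped. Background was expected to give 202 of the 267 counts. The log2 fold change was -2.87 ± 1.98 (SE, edgeR adjusted p = 0.596) with all libraries and turned to 2.23 without pup replicate 1 (edgeR adjusted p = 0.756). Of the exon length of Sox5, 9.25% lies opposite another gene, Sox5os1.

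Sox2 (ENSMUSG00000074637, chromosome 3, 34650405 to 34652461) had 0 counts in both adults and in pup replicate 1, and 28 counts, or 1.47 CPM, in pup replicate 2. It was not tested. The 0 counts allow up to 0.230 and 0.216 CPM in the adults and 0.325 CPM in pup replicate 1, for counting error only, although 28.9 counts were expected from background in the last. Sox2 was thus detected in 1 pup library, where Sox10 stood at 176 CPM.

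Salivary epithelial progenitor genes gave 10 tested members, 7 negative and 3 positive, with a median log2 fold change of -1.62. DESeq2 called 2 higher in adult, Kit among them, and 3 lower (Fgfr2, Etv5 and Krt14), and edgeR called 0. Krt14, a keratin of basal and myoepithelial cells, stood at 736 and 253 CPM in adult libraries, compared with 1257 and 2849 CPM in pup libraries. Krt5, its partner keratin, stood at 176 and 62.4 CPM in adult libraries, compared with 79.1 and 279 CPM in pup libraries. Kit, a receptor that marks salivary progenitors together with Sox10, differed with the opposite sign to Sox10, at 256 and 168 CPM in adult libraries against 16.7 and 1.31 CPM in pup libraries.

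Of the rest of the SOX family, 4 of 9 genes were tested, edgeR and DESeq2 called 0, and 1, Sox13, was higher in adult at an unadjusted edgeR p under 0.05. Sox13, of class D, stood at 21.9 and 60.8 CPM in adult libraries, compared with 10.6 and 7.99 CPM in pup libraries (log2 fold change 2.15 ± 0.73, SE, edgeR adjusted p = 0.284). Sox8, the third class E gene, had 64 and 3 counts in adult libraries against 92 and 306 counts in pup libraries. Sox17, of class F, had 0 and 900 counts in adult libraries against 69 and 0 counts in pup libraries. Like Sox18, it was highest in adult replicate 2. In pup replicate 1, 67.0 counts of Sox17 were expected at the average background rate, and the part of background in the 69 was not tested. Sox15 had 0 and 35 counts in adult libraries, compared with 48 and 0 in pup libraries. Sox1, Sox3, Sox14 and Sox30 had 0 counts in the adults and in pup replicate 2, and Sox21 had 3 and 0 counts in adult libraries, compared with 59 and 0 in pup libraries.

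**Figure D5:**
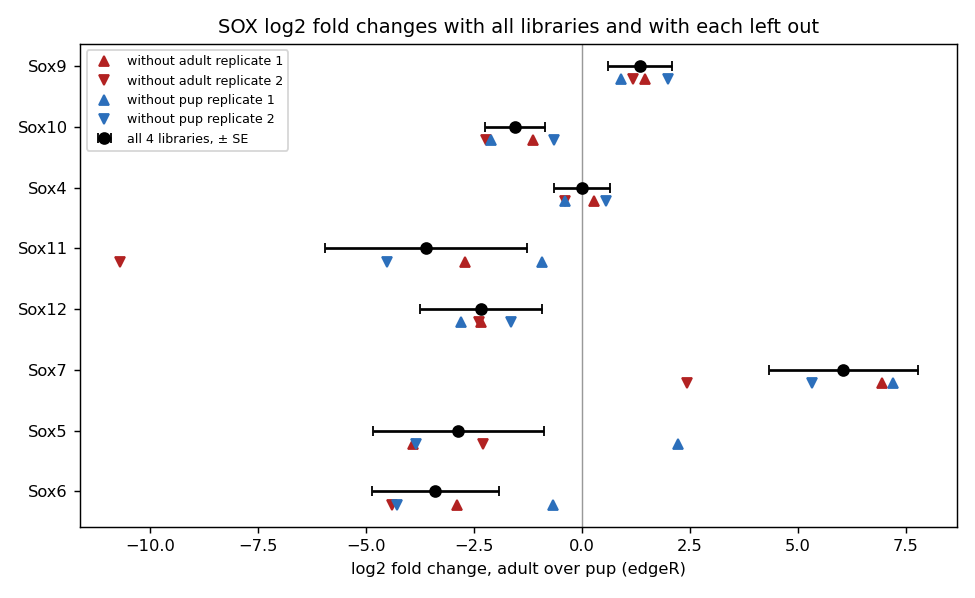
Black points give the edgeR log2 fold change of adult over pup for the 8 tested SOX genes with its SE, and triangles give the value with 1 library left out. Sox9, Sox10, Sox11, Sox12, Sox6 and Sox7 keep their sign in every such fit, Sox4 scatters around 0, and Sox5 moves to 2.23 without pup replicate 1.

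Patterns over the 4 libraries were set beside those of the genes on the other lists. Sox9 was most like Krt18, a keratin of simple epithelium at 2701 and 4886 CPM in adult libraries, compared with 330.0 and 861 CPM in pup libraries (Pearson's r of log2(CPM + 1) 0.986, matched or exceeded by 1.27% of genes tested). Sox10 was most like the mesenchymal factor gene Twist1 (r = 0.996, 0.245% of genes), Sox12 like the acinar gene Dcpp2 (r = 0.997, 0.374%) and Sox18 like the acinar factor gene Bhlha15 (r = 0.997, 0.0368%). The nearest genes to Sox2, Sox4, Sox5 and Sox7 were Sema3c, Dbn1, Ptprc and Prol1, with r between 0.833 and 0.973. Each r is over 4 libraries and can rest on a single high one, as for Sox18 and Sox7, where adult replicate 2 stands far above the rest.

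Of further cell types, acinar genes summed to 166 and 7818 CPM in adult libraries, compared with 630.3 and 2048 CPM in pup libraries. The adult replicate 2 sum was led by Prol1, a secreted proline-rich protein gene, at 50.9 and 7058 CPM in adult libraries, compared with 10.1 and 36.8 CPM in pup libraries, whereas Smgc, a product of the neonatal gland, stood at 106 and 227 CPM in adult libraries against 526 and 1564 CPM in pup libraries. DESeq2 called 1 acinar gene higher and 4 lower in adult, edgeR 0. Myoepithelial genes, led by Acta2 and Myh11, summed to 4618 and 2183 CPM in adult libraries, compared with 4017 and 12257 CPM in pup libraries, with 0 called by either tool. General epithelial genes, led by Krt18 and Krt8, summed to 8185 and 12576 CPM in adult libraries, compared with 1582 and 3563 CPM in pup libraries, all 10 being detected in each library, and DESeq2 called 6 higher in adult and edgeR 0. Leukocyte genes, led by Ptprc and Laptm5, summed to 28.4 and 13.5 CPM in adult libraries, compared with 99.5 and 2.73 CPM in pup libraries, with 0 called by either tool. Among the 11 mesenchymal genes, led by Col3a1 and Col1a1, 11 were negative, and among the 11 ionocyte genes, led by Tfcp2l1 and Hepacam2, 11 were positive. DESeq2 called 1 mesenchymal gene lower and 11 ionocyte genes higher, and edgeR 0 of either. The part of these cell types in the SOX values was not tested.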

How the data were processed

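The deposited values are raw read counts per Ensembl gene, with a file for each library. Tools named in the submitters' processing notes are cutadapt 1.18, STAR 2.5.2a, HTSeq 0.11.0, R 3.5.1, DESeq2 1.20.0 and GRCm38. No source used here gives the options, annotation release or strand. Per the labels' protocols, libraries were made with SMART-Seq HT from 1 ng of RNA. The closing tallies of each file (unassigned, ambiguous and multiply aligned reads), 31.5% to 84.4% of reads, stayed out of library sizes and tests. The 8 value columns of 2 further tables match no single sample and were not used.

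Of 53465 genes, 53360 matched GENCODE vM21, the source of symbols, positions and merged exon lengths. Groups and replicate numbers came from the titles. Ages were compared by the quasi-likelihood test of edgeR 4.0.16 under R 4.3.3 (TMM, filterByExpr with minimum count 10 and minimum total 15, age as the only term, Benjamini-Hochberg adjusted p under 0.05). Checked on simulated data, it recovered the sign of nearly all changed genes, missed many calls and made false calls above its nominal rate. SE is the log2 fold change divided by the root of F. Alternatives included DESeq2 1.42.0 and limma-voom (limma 3.58.1), other scalings and filters, subtraction of the olfactory receptor background (at 0.5 of its rate on X and Y) and each library left out, on the same genes. A count of 0 allows 3 counts.

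The members and lists were chosen with earlier results of these data known. All 10 members and every other SOX gene of the list are named. From each other list come the called genes or, with none called by edgeR, the 2 of highest mean CPM. Further genes there (DESeq2 calls and defining markers) were named after their values were seen. Some list genes are not reported here.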

Additional observations from a re-analysis of the deposited data

How the results depend on the processing

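Over all genes, edgeR called 0 higher and 0 lower in adult under TMM, library totals, upper-quartile scaling and the size factors of DESeq2, as did limma-voom. With no filter beyond 1 count it called 284 higher and 231 lower, with 10 counts asked of every library of an age 13 and 2, with the background of pup replicate 1 subtracted 15 and 2, and DESeq2 called 610 and 862. With a library left out, 0 to 247 genes were called higher and 0 to 733 lower, the highest numbers coming without adult replicate 2 (247 and 733) and the next without adult replicate 1 (229 and 161). The cause was not tested. Of 104 values of the 8 tested members under alternatives, 92 kept their sign and side of the threshold, 4 passed it and 8 turned sign. Those that passed were Sox7 with no filter (6.27), by DESeq2 (5.91) and without adult replicate 1 (6.95), and Sox11 without adult replicate 2. Sox4 turned to -0.055 under DESeq2 size factors, -0.14 under upper-quartile factors, -0.28 under library totals, -0.055 by DESeq2, -0.17 with background subtracted, -0.40 with pup replicate 1 left out and -0.39 with adult replicate 2 left out. With a library left out, Sox4 ranged from -0.396 to 0.543 and Sox5 from -3.93 to 2.23, the last without pup replicate 1. Library totals shifted the median of all genes by -0.38, upper-quartile scaling by -0.18 and DESeq2 size factors by -0.07. With the replicate number as a block, edgeR called 0 genes higher and 0 lower. Same-numbered libraries shared only a number, their deviations correlating at -0.035 across genes. With 2 libraries per age, precision is low. Counts of Sox12, Sox5, Sox6 and Sox11 in pup replicate 1 were 0.992 to 2.16 times those expected at the average background rate, which varies between genes, so the part of background in them is unknown.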

Other observations

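Noncoding genes named for SOX genes were nearly silent outside pup replicate 1. Sox2ot, a long noncoding RNA whose gene contains Sox2, had 0 and 35 counts in the adults and 214 and 20 counts in the pups, with 163 expected from background in pup replicate 1, and was not called (log2 fold change -3.25, edgeR adjusted p = 0.644). Adult replicate 2 thus held 35 counts of Sox2ot and 0 of Sox2. Sox1ot had 29 counts in pup replicate 1, with 104 expected from background, and 0 in the other libraries. The antisense genes of Sox5 had 0 counts outside pup replicate 1, and Sox6os had 8 counts in adult replicate 1 and 0 elsewhere.

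Vwf stood apart from the other endothelial genes in adult replicate 1, with 3393 counts where Cdh5, Kdr, Flt1, Tie1, Tek and Emcn had 0 and Pecam1 had 1. It was singled out after its values were seen.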
